A study of Mus musculus with 2 samples.

Results

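Cluster 2 is the column of 352 cells among the 3082 cells (11.4%) that the authors divided into 12 numbered clusters. Its members are the cells the authors placed there, and it is described through its deposited average of 17044 genes, set against the other columns and above all against clusters 1 (398 cells) and 7 (247 cells). The tissue was epithelium of the colon from wild-type mice of the C57BL/6 strain, taken 2 weeks after irradiation, and every cell of the series belongs to that 1 group. The series title places the work in regeneration of radiation proctitis by transplanted colonoids, which are cultured colon epithelium, but whether any cell profiled here derives from a transplant is not stated in the labels. The group was run as 2 libraries, and the labels do not say whether they are separate animals. The columns pool both libraries, so averages stand without replicates and clusters could not be tested against each other, and the clusters were drawn from the same values that describe them. Intervals are approximate 95% Poisson intervals of the UMIs (unique molecular identifiers, 1 per captured transcript molecule) behind an average, and they cover counting error only.

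The colon epithelium is renewed from stem cells at the base of pits called crypts, whose daughters divide, move up and mature into absorptive colonocytes or secretory cells. HB-EGF, the product of Hbegf, is made as a membrane-anchored precursor and, once cut free by ADAM proteases, binds the EGF receptor and ERBB4, a route known for epithelial growth and wound closure. Endothelins are short peptides cut by furin and by endothelin converting enzymes from longer precursors. They act on the receptors encoded by Ednra and Ednrb and are best known for contraction of vessels. Smoc2 encodes a secreted matrix protein used as a marker of intestinal stem cells, and Hes1 is a transcriptional repressor switched on by Notch that keeps crypt cells from the secretory fate.

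Of the 5 markers that give cluster 2 its label, 4 (Hbegf, Edn2, Edn1 and Hes1) had their highest average of the 12 clusters there. Smoc2 was second to cluster 7. The markers were chosen with earlier results of these data known, so their levels describe the label and do not test it. Epcam, an adhesion protein of all epithelial cells, averaged 22.9 UMIs per 10000 in cluster 2, against 3.83 in cluster 5, whose leading genes are those of neutrophils. All values below are such averages per 10000 UMIs of a cell unless another scale is named. Crypt base genes were present at low levels: Lgr5, the receptor that marks crypt base stem cells, averaged 0.0328 in cluster 2 (0.0132 to 0.0674), with 0.115 in cluster 7 and 0.00144 in cluster 1. Ascl2, a stem cell transcription factor, stood at 0.0954, 0.206 and 0.00337 in the same order. Mki67, a protein of cycling cells, averaged 0.0844 in cluster 2 against 1.47 in cluster 7. Over 3276 genes, the rank correlation (Spearman's rho) of cluster 2 with the other averages was highest for cluster 7 at 0.91 and cluster 1 at 0.89, a description over genes that share their depth and scaling. UMI totals could be identified for 255 of the 352 cells, with a median of 13555 UMIs and quartiles of 11436 and 16554, against medians of 16130 in cluster 1 and 19522 in cluster 7. Ribosomal protein genes took 22.7% of the UMIs, with 15.1% and 22.6% in clusters 1 and 7, and mitochondrially encoded RNA took 4.55% (6.88% and 2.95%). Malat1, a nuclear RNA, took 2.44% (3.79% and 0.945%).

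RNA of neutrophils was present in cluster 2. The 14 neutrophil markers measured summed to 43.1 there and 1202 in cluster 5, while clusters 1 and 7 held 2.66 and 4.17, and the other epithelial clusters spanned 1.34 to 20.0. The granule genes Ngp and Camp were at 0 in cluster 2, but they were nearly absent from cluster 5 too, at 0.0169 and 0.0467. Their highest averages were in cluster 3, at 2.81 and 2.35, so their absence does not describe the neutrophil RNA of cluster 2. S100a8, a subunit of the abundant neutrophil protein calprotectin, was at 16.2 in cluster 2, which is 3.80% of its level in cluster 5. The 10 markers highest in cluster 5 stood in cluster 2 at 0.163% to 4.47% of their cluster 5 level, with a median of 3.01%. Ptprc, the pan-leukocyte surface phosphatase, was at 0.0827 in cluster 2 and 3.69 in cluster 5. G0s2, a lipase inhibitor that neutrophils express strongly, was at 8.38 in cluster 2, 8.53% of cluster 5. Markers of other cells were scarce: the T and NK list summed to 0.0628, B and plasma cells to 0.0535, fibroblasts to 0.0511 and endothelium to 0.0423. The macrophage list reached 5.91, of which Cst3, a protease inhibitor of many cell types, made 5.15.

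The cells behind part of this RNA could be read from the averages, since an average that comes from 1 or 2 cells reveals their UMI totals. Of the 14903 genes above 0 in cluster 2, 1917 (12.9%) were traced in this way. Genes highest in cluster 5, and at least 5-fold higher there than in every cluster except 2 and 10, gave 76 such placements in cluster 2, from 56 genes. Of these, 38 (50%) fell in 11 cells with fewer than 3000 UMIs and the others in 23 deeper cells. Placements in the same cell are not independent, so no interval is given. Among all other genes 105 of 2486 placements (4.22%) fell in 21 cells below 3000 UMIs. Cells this shallow made up 21 of the 255 with an identified total (8.24%), and none of the 255 lay between 1788 and 3229 UMIs. In cluster 1 the corresponding share of placements was 7.55% (8 of 106), against 3.26% among all other genes. In cluster 7 it was 12.2% (14 of 115), against 1.29%. In each of these clusters the shallow placements of such genes fell in 2 cells. A cell of 814 UMIs carried 6 of these genes, among them Cxcr2, the neutrophil chemokine receptor. Deep cells held such RNA too, and a cell of 25843 UMIs carried 8. Whether a shallow entry was a neutrophil, a doublet or an empty droplet was not tested. For some of the genes that cluster 5 also holds, the text below gives how much of the value a cluster 5 profile scaled to cluster 2 would hold. The profile was scaled at the S100a8 ratio of 3.80% and at the G0s2 ratio of 8.53%, and a share given alone is that at the larger ratio.

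**Figure D1:**
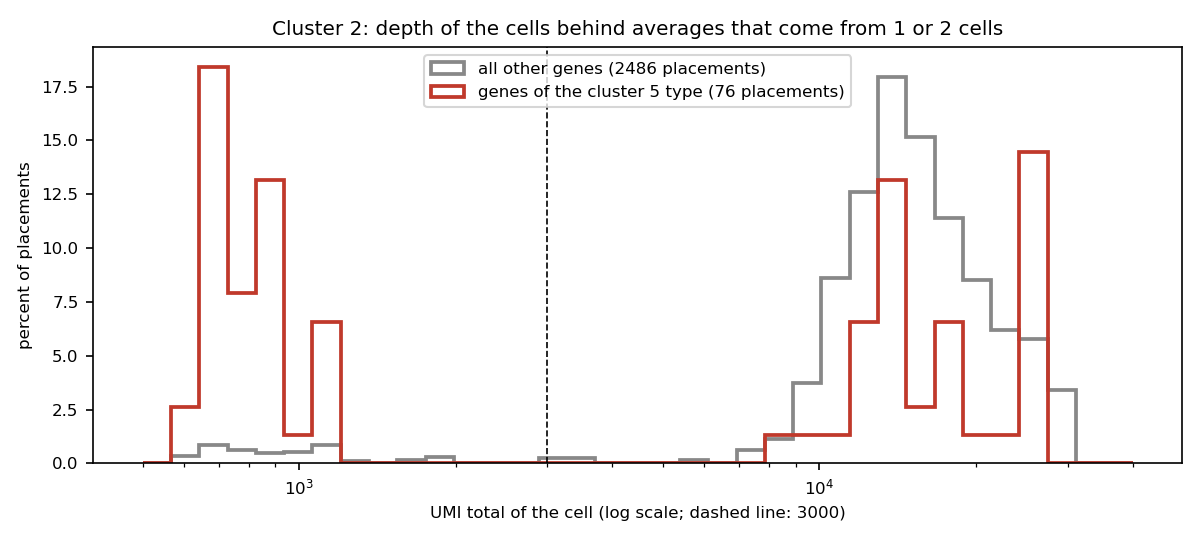
Share of placements (y axis, percent) by the UMI total of the cell they fell in (x axis, log scale) for cluster 2, in red for the 76 placements of genes of the cluster 5 type and in grey for the 2486 of all other genes; the dashed line marks 3000 UMIs. Left of the line lie 50% of the red placements and 4.22% of the grey ones.

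Hbegf, Edn2 and Edn1 were higher in cluster 2 than in any other cluster by more than their counting intervals, the interval of Hes1 overlapped that of cluster 6, and Smoc2 was higher in cluster 7. Hbegf averaged 8.90 in cluster 2 (8.51 to 9.31, about 1911 UMIs), with 4.03 in cluster 1 and 2.83 in cluster 7, and the other clusters lay from 0.784 to 4.0. It thus stood 2.18-fold over cluster 1, the next highest, after 0.1 was added to both values, as for every fold given here. Its interval in cluster 2 did not meet that of any other cluster. Edn2 averaged 1.70 (1.53 to 1.89) in cluster 2, with 0.423 and 0.628 in clusters 1 and 7 and 0.0175 to 0.522 elsewhere, 2.48-fold over the next cluster. Edn1 was at 3.18 (2.95 to 3.43), against 1.42 and 1.09 in clusters 1 and 7, and cluster 6 came next at 1.94 (1.55 to 2.38), a ratio of 1.61. Both endothelin genes were thus highest in the same cluster, but the clusters next to it differed. In cluster 0 Edn1 was at 0.209 and Edn2 at 0.448, and in cluster 8 Edn1 was at 1.56 and Edn2 at 0.201. Hes1 was at 3.90 (3.64 to 4.18), close to the 3.40 of cluster 6 (2.89 to 3.98), whose interval it overlapped. Smoc2 averaged 0.704 (0.596 to 0.826) in cluster 2. It was at 1.10 (0.977 to 1.22) in cluster 7, with 0.441 in cluster 6 and 0.0577 in cluster 1. Smoc2 was thus higher than in cluster 1 and lower than in cluster 7. Its fold over cluster 1 was 5.10, or 1.61 with 1 rather than 0.1 added, since its value in cluster 1 is below the amount added. The scaled cluster 5 profile would hold 1.11% of the Hbegf value, 0.90% of Edn2, 1.41% of Edn1, 1.01% of Smoc2 and 3.44% of Hes1.

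**Figure D2:**
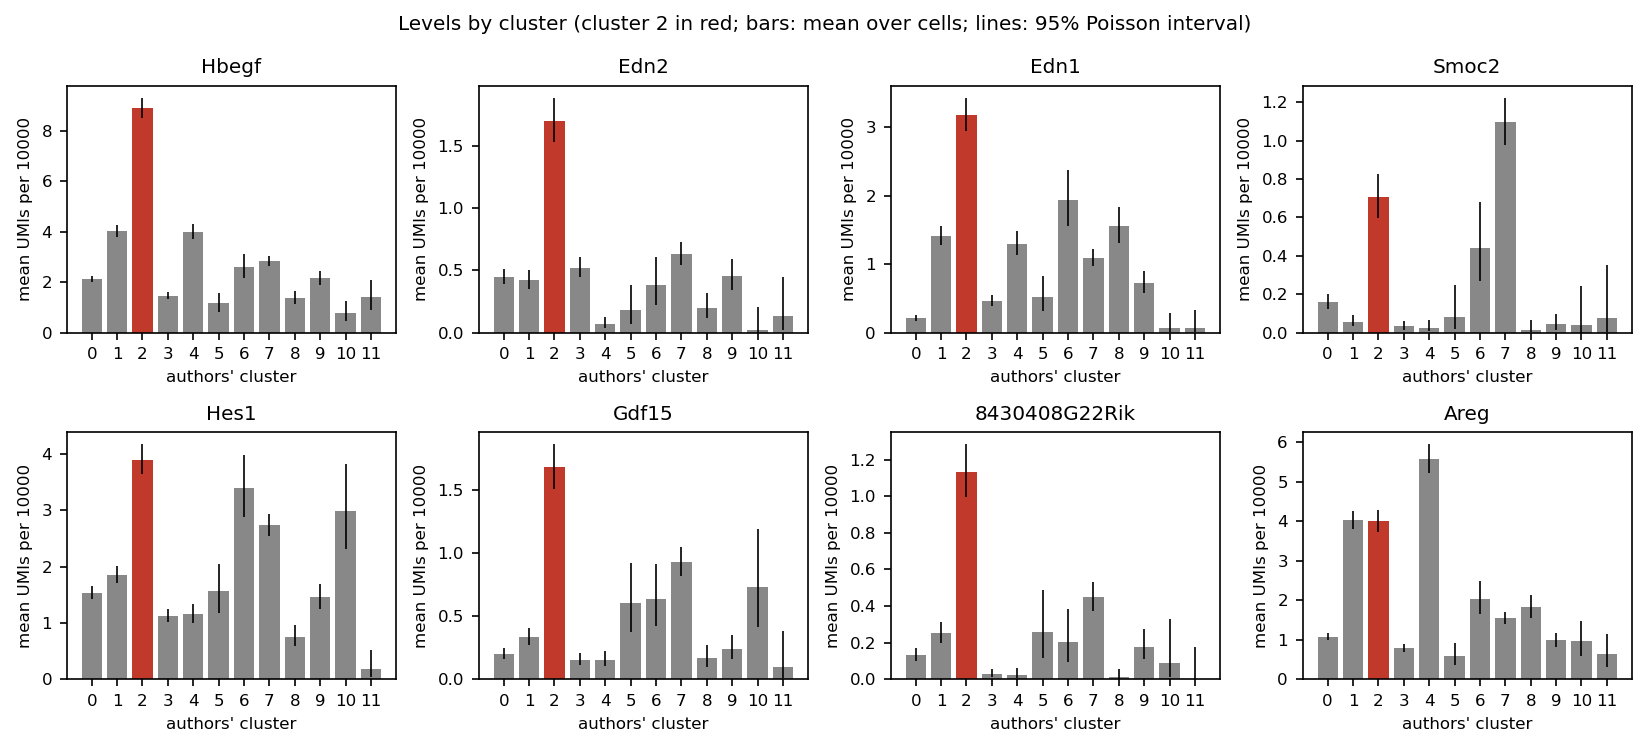
Mean UMIs per 10000 (y axis, from 0) in each of the authors' 12 clusters (x axis) for the 5 markers and for Gdf15, 8430408G22Rik and Areg; red bars are cluster 2 and lines are 95% Poisson intervals, which cover counting error only. Cluster 2 is the highest bar for every gene shown except Smoc2, highest in cluster 7 at 1.10, and Areg, highest in cluster 4 at 5.58.

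The 250 bases before the transcription start of Edn2, Edn1 and 8430408G22Rik are shown because these genes, with Hbegf, were the ones highest in cluster 2 and at least 2-fold over both clusters 1 and 7 with the largest leads. The sequences are RefSeq's for the build GRCm38.p6, on the strand of the gene, and lie upstream of its first exon. Edn2 is on the plus strand (chr4:120160956-120161205), Edn1 on the plus strand (chr13:42301226-42301475) and 8430408G22Rik, which RefSeq names Depp1, on the plus strand (chr6:116650434-116650683). None of the motifs searched below lay in these windows, so no base is in capitals.
Edn2: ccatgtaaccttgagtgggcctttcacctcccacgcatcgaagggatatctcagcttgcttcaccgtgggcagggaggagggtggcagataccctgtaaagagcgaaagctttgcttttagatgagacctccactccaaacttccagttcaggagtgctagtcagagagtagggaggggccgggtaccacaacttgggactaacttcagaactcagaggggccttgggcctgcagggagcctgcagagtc
Edn1: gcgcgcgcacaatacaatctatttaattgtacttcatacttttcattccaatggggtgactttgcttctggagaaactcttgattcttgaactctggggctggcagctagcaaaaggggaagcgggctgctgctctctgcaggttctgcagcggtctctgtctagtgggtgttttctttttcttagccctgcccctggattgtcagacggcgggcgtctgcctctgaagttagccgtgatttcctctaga
8430408G22Rik: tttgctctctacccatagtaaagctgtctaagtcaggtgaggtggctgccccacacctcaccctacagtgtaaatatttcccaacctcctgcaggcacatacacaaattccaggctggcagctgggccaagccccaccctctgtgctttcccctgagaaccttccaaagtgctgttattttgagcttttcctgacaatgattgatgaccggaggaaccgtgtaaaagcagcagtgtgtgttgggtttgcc

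Among the other ligands of the EGF receptor family, Areg (amphiregulin), the only other one above 1 per 10000, did not follow Hbegf. It was at 4.0 (3.73 to 4.27) in cluster 2 and 4.03 in cluster 1, and higher in cluster 4, at 5.58. Against cluster 7, at 1.54, it was 2.50-fold higher. Egf, Tgfa, Btc and Ereg stood between 0.0168 and 0.0575 in cluster 2, Nrg1 was at 0, and Epgn and Nrg4 were below 0.01. The 9 ligands together summed to 13.1 in cluster 2, the highest of the 12 clusters, against 8.32 in cluster 1 and 4.64 in cluster 7. Of these, 8.90 was Hbegf. Of the receptors, Egfr was at 0.0991, Erbb2 at 0.589 and Erbb3 at 0.397. None of these receptors was highest in cluster 2. The sheddases Adam10, at 0.259 (0.452 in cluster 1 and 0.447 in cluster 7), and Adam17, at 0.112, were not high there either. Errfi1, a feedback inhibitor of the EGF receptor, averaged 1.62 in cluster 2, with 1.15 and 0.708 in clusters 1 and 7 and 2.47 in cluster 4. Lrig1, another inhibitor of ERBB receptors and a stem cell gene, was at 0.328, 0.0735 and 0.438 in clusters 2, 1 and 7.

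Beyond Edn1 and Edn2, no measured member of the endothelin system was 2-fold apart from clusters 1 or 7 among genes that reached 1 per 10000. Edn3 was at 0.0025 and Ednrb at 0.00219, the latter from 1 cell, and Ednra and Mme, a peptidase that degrades endothelins, were not analysed here. Ece1, a converting enzyme, was at 0.281, 0.305 and 0.166 in clusters 2, 1 and 7, and Ece2 at 0.188, 0.108 and 0.258. Furin was at 0.325, 0.237 and 0.232 in the same order. Of the 7 members measured, Edn1 and Edn2 were at least 2-fold above each of clusters 1 and 7, and no other member reached 1 per 10000. Of the 1383 genes at 1 or more in cluster 2, 3.54% were at least 2-fold above both.

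Across all genes, 3 of the 1383 at 1 or more per 10000 in cluster 2 (0.217%) were at least 2-fold over the highest other cluster: Edn2, Hbegf and 8430408G22Rik. With 1 rather than 0.1 added to both values none of the 3 reached 2-fold, and Hbegf stood 1.97-fold over cluster 1. Without clusters 5, 6 and 10 as comparators, 24 genes led instead of 3. The transcript of 8430408G22Rik was at 1.13 (0.995 to 1.29), with 0.250 and 0.448 in clusters 1 and 7, and its product DEPP1 is a protein linked to FOXO signalling and autophagy. A wider set of 81 of the 1383 genes (5.86%) had its highest average in cluster 2 by any margin, as did 699 of all 17044 genes (4.1%), and 42 of the 1383 (3.04%) stood 2-fold or more above the average of the remaining 11. Behind the 3 leaders came Gdf15, a stress-induced cytokine of the TGF-beta superfamily, at 1.68 (1.51 to 1.87), with 0.331 in cluster 1 and its next highest value, 0.927, in cluster 7. After Edn1 came Acsm3, a medium-chain acyl-CoA synthetase, at 1.11 against 0.756 in cluster 7. Stard4, a sterol carrier, was at 1.45 against 1.03. Gas6, a ligand of the TAM receptor kinases, was at 3.30 (1.84 in cluster 1 and 1.43 in cluster 7). Arl4a, a small GTPase, was at 4.83 (2.66 and 1.62) and Gas5, a noncoding RNA that hosts small nucleolar RNAs, at 9.59 (3.93 and 7.42). For Gas6, Arl4a and Gas5, clusters 1 and 7 need not hold the next highest value, so these values do not give the lead. Zfos1 and the beta-defensin gene Defb45 closed the list at 3.27 and 1.16, and Defb45 was at 0.916 in cluster 6. Beta-defensin genes are similar in sequence, and reads of close copies may have been split. Kcne3, a potassium channel subunit of chloride-secreting cells, was also highest in cluster 2, at 2.66 against 2.31 in cluster 7 and 0.553 in cluster 1.

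Cluster 2 differed from cluster 1 in carrying fewer transcripts of mature colonocytes. Of 1624 genes at 1 or more in either cluster, 107 (6.59%) were at least 2-fold lower in cluster 2. Of these 107 genes, 55 had their highest average in cluster 4 and 38 in cluster 8. Krt20, a keratin of mature colonocytes, averaged 0.174 against 2.28 in cluster 1, 8.69-fold higher there. Aqp8, a water channel, was at 0.0854 in cluster 2 and 1.04 in cluster 1. Car4, a carbonic anhydrase of the brush border, was at 0.133 and 1.24. Lypd8, a secreted protein that holds bacteria off the epithelium, was at 57.5 (56.5 to 58.6) and 223. The acute phase gene Saa1 was at 0.547 and 4.76, the adhesion protein Ceacam20 at 0.186 and 1.54, and Aldh1a3, which makes retinoic acid, at 0.0695 and 1.35. Of the 25 absorptive colonocyte genes, 19 reached 1 in either cluster, 15 of them were at least 2-fold lower in cluster 2 and 1 was higher. The higher one was Sult1a1, a sulfotransferase, at 2.57 against 0.206 in cluster 1. The median of the list was -1.29 on the log2 scale, beside 0.01 over all genes.

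Part of the injury and repair genes was lower in cluster 2 than in cluster 1. Clu (clusterin), a marker of regenerating gut cells, was at 3.24 (3.01 to 3.49) in cluster 2 against 14.5 in cluster 1. Ly6a (Sca-1), a surface protein of fetal-like repair states, was at 1.90, 10.7 and 7.31 in clusters 2, 1 and 7. Ly6a is one of a family of similar genes, whose reads may have been split between copies. Anxa8, an annexin, was at 0.469, 1.96 and 1.13, and Capg, an actin-capping protein, at 1.29, 5.17 and 3.76. Ly6a, Anxa8, Capg and the myosin light chain gene Myl7 were the 4 genes at least 2-fold lower in cluster 2 than in both. Of 17 injury and repair genes measured, 10 reached 1 in either cluster, 4 were at least 2-fold lower than in cluster 1 and 0 higher. The share lower over the 1624 genes compared was 6.59%, and the list median was -0.65. Against cluster 7 the list median was -0.36. Of 10 members that reached 1 in cluster 2 or 7, Ly6a and Anxa8 were at least 2-fold lower and Il1rn higher. The shares over the 1696 genes compared were 6.49% lower and 5.6% higher. The scaled cluster 5 profile would hold 37.4% of Il1rn at the S100a8 ratio and 84.0% at the G0s2 ratio. The interferon list had medians of -0.83 against cluster 1 (-0.16 with 1 added) and -0.07 against cluster 7. Of its 3 members that reached 1 in clusters 2 or 1, Irf7, a regulator of the interferon response, was lower, at 0.546 against 2.08, and Ifitm3, a membrane protein that blocks virus entry, was higher, at 1.88 against 0.524. The glycolysis and hypoxia list had medians of -0.65 and -0.09, with 1 member (Pfkp) at least 2-fold lower than in cluster 1.

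In the other direction, 97 of the 1624 genes (5.97%) were at least 2-fold higher in cluster 2 than in cluster 1. Of these, 41 had their highest average in the immune clusters 5 or 10, and the largest folds were all but one of this kind: G0s2 (8.38 against 0.139), S100a9 (15.5 against 0.369), S100a8 (16.2 against 0.464), Il1b and the chemokines Cxcl2 and Ccl4. The exception among the top 15 was Sult1a1. A further 17 of the 97 were highest in cluster 2 itself and 17 in the hormone cell cluster 11, which holds only 19 cells. Klf2, a transcription factor highest in cluster 11, was at 4.65 against 0.769, and Cyr61, a matrix protein gene of the YAP pathway that was highest in cluster 0, at 3.34 against 0.829. F3, the gene of tissue factor, was at 1.51 against 0.445 and highest in cluster 2, and Plk2, a stress-responsive kinase, at 1.10 against 0.290, and Gdf15 and Kcne3 were likewise highest in cluster 2. Hspa1a, a heat shock chaperone, was at 3.13 against 0.663 and highest in cluster 10.

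Against cluster 7 the main difference was the cell cycle. Of 1696 genes, 110 (6.49%) were at least 2-fold lower in cluster 2, and 92 of the 110 were highest in cluster 7. Ube2c, which drives exit from mitosis, was at 0.0885 in cluster 2 and 3.33 in cluster 7. Birc5 (survivin) was at 0.111 and 3.67, Cdc20 at 0.0574 and 2.01 and Cdk1, the mitotic kinase, at 0.0532 and 1.59. All 15 genes with the largest fold in this direction belong to the cell cycle or to DNA synthesis. Of 24 genes of mitosis and G2, the 13 that reached 1 in either cluster were all at least 2-fold lower in cluster 2, and 0 of the 24 stood above cluster 7, with a list median of -2.63. The 20 S phase genes had a median of -1.52, also with 0 above cluster 7. Against cluster 1, all 20 S phase genes and 20 of the 24 mitosis genes had a log2 ratio above 0. The medians were 0.51 and 0.13, beside 0.01 over all genes. Most of these values are low: 0 of the S phase genes and 4 of the mitosis genes reached 1 in cluster 2 or 1. With 1 rather than 0.1 added the medians were 0.095 and 0.015. Stmn1, a microtubule regulator, was at 1.55, 0.433 and 7.25 in clusters 2, 1 and 7, and Cdk4, the G1 kinase, at 1.19, 0.477 and 2.59. Both were at least 2-fold from each neighbour, as were Cks2, Ifitm3 and Trf, and these 5 genes were the ones higher than in cluster 1 and lower than in cluster 7. The scaled cluster 5 profile would hold 35.8% of Cks2 and 59.4% of Ifitm3 at the G0s2 ratio, or 15.9% and 26.5% at the S100a8 ratio. Less that share at the G0s2 ratio they stood 1.52-fold and 1.48-fold over cluster 1, and at the S100a8 ratio 1.88-fold and 2.46-fold.

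Cluster 2 was higher than cluster 7 in a few colonocyte genes. Of the 1696 genes, 95 (5.6%) were at least 2-fold higher in cluster 2, of which 39 were highest in clusters 5 or 10. Among the remainder, Gsdmc4, a gasdermin with close copies whose reads may be split, was at 4.89 against 0.750. Cyp2c68, a cytochrome P450, was at 1.03 against 0.116, and Pck1, an enzyme of glucose synthesis, at 1.14 (0.999 to 1.29) against 0.0843 (0.054 to 0.125). Pck1 was at 1.13 in the next highest cluster, so it did not set cluster 2 apart from all others. Car2, a carbonic anhydrase, was at 10.6 against 4.09, and Muc3, a membrane mucin, at 12.2 against 5.15. The absorptive list had a median of 0.36 against cluster 7, with 3 of 9 members at least 2-fold higher (Car2, Cdhr5 and Muc3) and 0 lower. Cdhr5, a brush border protocadherin, was at 2.07, 6.00 and 0.976 in clusters 2, 1 and 7. It was 1 of 6 genes higher than in cluster 7 and lower than in cluster 1, with Gsdmc2, Il18, Myo15b and the mitochondrial ribosomal RNAs mt-Rnr1 and mt-Rnr2. Il18, an epithelial cytokine, was at 2.60, 5.75 and 0.979.

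**Figure D3:**
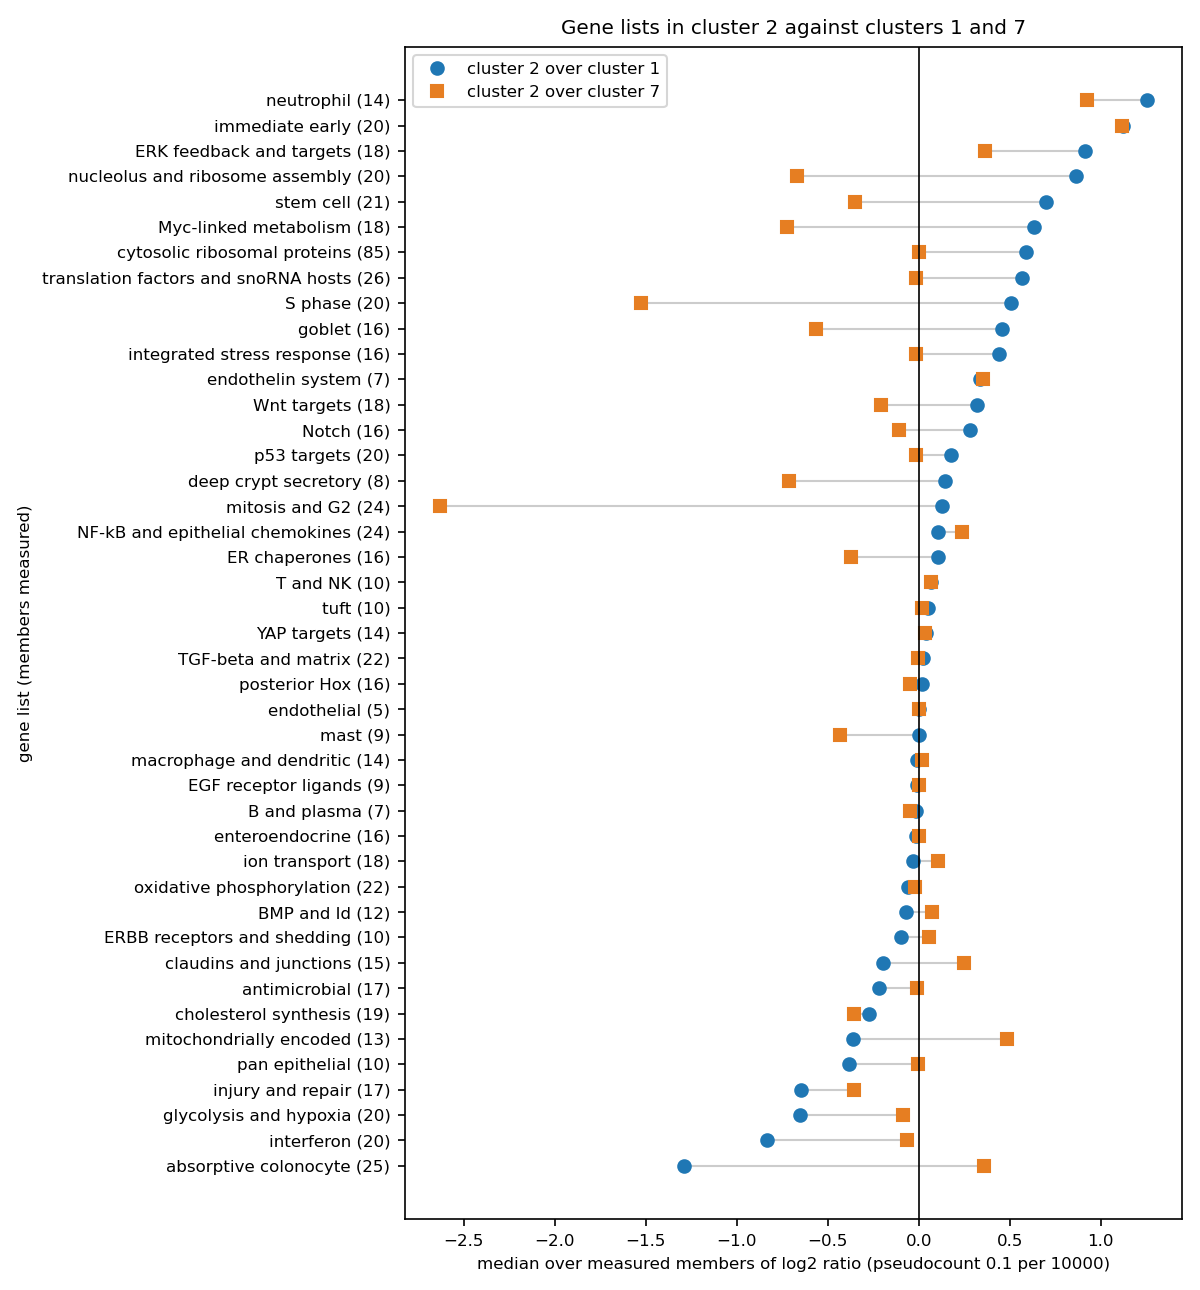
Median over the measured members of each gene list (y axis, number of members in brackets) of the log2 ratio of cluster 2 to cluster 1 (blue circles) and to cluster 7 (orange squares), with 0.1 per 10000 added (x axis); grey lines join the medians of 1 list. Mitosis and S phase lie at -2.63 and -1.52 against cluster 7, the absorptive list at -1.29 against cluster 1, and the immediate early list at 1.12 against each.

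By their list medians, genes of crypt identity stood between the neighbours. The stem cell list had a median of 0.70 against cluster 1 and -0.35 against cluster 7, with 17 and 4 of 21 measured members above 0. Over all genes the medians were 0.008 and -0.003. Slc12a2, the chloride uptake transporter of crypt cells, was at 1.04, 0.406 and 1.58 in clusters 2, 1 and 7. Aqp4, a water channel, was at 1.11, 0.537 and 0.941. Prom1 went the other way, at 0.751, 1.75 and 1.17. Sox9, a transcription factor of crypt cells, was at 0.978, 0.803 and 0.978. Wnt targets had medians of 0.32 and -0.21, with Ccnd2 (cyclin D2) at 4.0, 2.63 and 3.65 and Axin2, the Wnt feedback gene, at 0.0776, 0 and 0.127. The value of 0 for Axin2 in cluster 1 allows up to 0.00993.

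Among Notch pathway genes, Hes1 alone was 2-fold apart from cluster 1. Of 16 genes measured, 2 reached 1 per 10000 in cluster 2 and 1, Hes1, was at least 2-fold higher than in cluster 1 (2.05-fold). The share over the 1624 genes compared with cluster 1 was 5.97%. None of the Notch genes was 2-fold apart from cluster 7. The receptors Notch1 and Notch2 were at 0.103 and 0.0846, and the ligands Dll1, Dll4 and Jag1 at 0.0411, 0.0146 and 0.0371. Jag2 and Hey1 were at 0. Atoh1, the secretory fate factor that Hes1 represses, was at 0.120, 0.0334 and 0.165 in clusters 2, 1 and 7 and at 2.37 in cluster 0. Nrarp, a Notch feedback gene, was at 0.137, 0.113 and 0.354 in clusters 2, 1 and 7. Hes6 was at 1.35, 1.01 and 1.88. Muc2, the gel-forming mucin of goblet cells, was at 0.968 in cluster 2 against 79.2 in cluster 0, and the 16 goblet genes summed to 32.2 against 1064.

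Higher than in both neighbours by at least 2-fold were 49 of the 1383 genes (3.54%). Of these, 29 were highest in cluster 5. The other 20 were highest in neither cluster 5 nor cluster 10, and 7 of them were highest in cluster 2, among them Hbegf, Edn1, Edn2, 8430408G22Rik and Pck1. Nupr1, a small chromatin protein induced by stress, was at 18.4 (17.8 to 18.9), with 6.88 and 5.09 in clusters 1 and 7 and 19.8 in cluster 0. Adh1, an alcohol dehydrogenase that also oxidises retinol, was at 8.91, 3.67 and 2.36 in clusters 2, 1 and 7. Tsc22d1, a transcriptional regulator, was at 5.78, 2.46 and 2.58, and B3gnt7, a glycosyltransferase, at 2.80, 1.15 and 0.798. Id1, an inhibitor of differentiation factors that BMP signals induce, was at 6.86, 3.23 and 3.28, and Fam134b, a receptor for autophagy of the endoplasmic reticulum, at 1.30, 0.386 and 0.490. Klk1, a kallikrein, was at 5.92, 1.99 and 2.03 and far higher in cluster 0, at 32.4. Gm26917, a noncoding RNA gene, was at 11.1, 4.69 and 2.22 and highest in the shallow cluster 6, at 35.3.

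**Figure D4:**
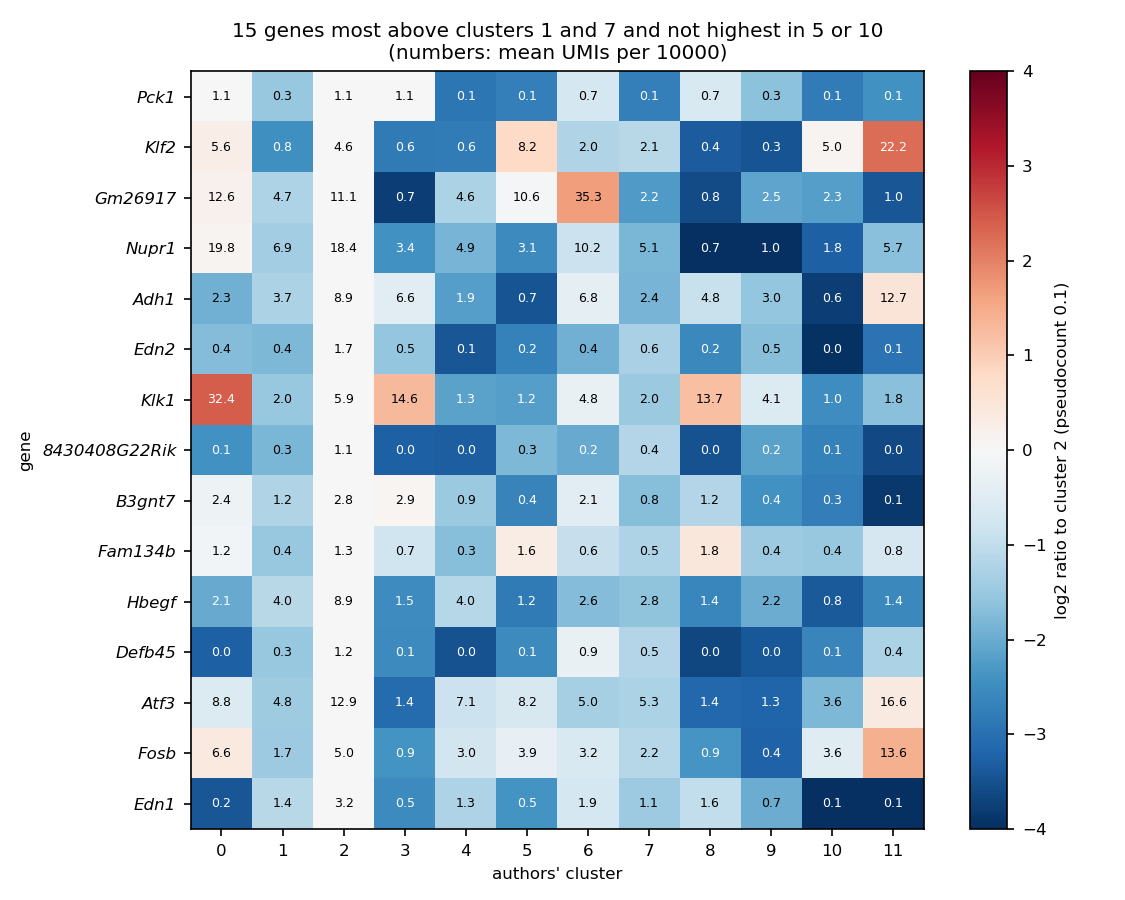
Mean UMIs per 10000 (numbers) and log2 ratio to cluster 2 (colour, with 0.1 added) of the 15 genes (rows) with the largest combined fold over clusters 1 and 7, among the 20 at least 2-fold higher than both and not highest in clusters 5 or 10, over the authors' 12 clusters (columns). Blue cells are below cluster 2 and red cells above it: Edn2, Hbegf and 8430408G22Rik are blue in every other column, while Klk1 reaches 32.4 in cluster 0 and Klf2 reaches 22.2 in cluster 11.

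Immediate early genes, which respond within minutes to growth factors and also to tissue dissociation, had the highest list medians apart from the neutrophil list and the 5 markers. The 20 members had a median of 1.12 against cluster 1 and 1.12 against cluster 7. Of 17 that reached 1, 11 were at least 2-fold higher than in cluster 1 (5.97% of the 1624 genes compared). Against cluster 7, 12 were higher (5.6% of the 1696 compared), and 0 were lower in either comparison. Less the scaled cluster 5 profile, 9 and 12 of 16 were higher at the S100a8 ratio, and 8 and 8 of 16 at the G0s2 ratio. Fos was at 25.2 (24.6 to 25.9), with 11.5 and 13 in clusters 1 and 7, so it stood just under 2-fold over cluster 7. Jun was at 21.1, 11.4 and 9.25, Atf3 at 12.9, 4.79 and 5.29 and Fosb at 4.97, 1.75 and 2.21. These 4 had their highest averages in cluster 11, of 19 cells, for instance 36.6 for Fos, and none of the 20 was highest in cluster 2. Cluster 5 has these transcripts as well, and the scaled cluster 5 profile would hold 4.95% of the cluster 2 value of Fos, 3.79% of Jun, 5.40% of Atf3, 6.73% of Fosb and 15% of Klf2. For Junb, Dusp1 and Zfp36 it would hold 30.5%, 26.3% and 32.2%. Less that share and after rescaling, Junb was at 9.91 in cluster 2 against 4.54 and 5.16 in its neighbours. For Ier3 the scaled profile would hold 57.6% at the S100a8 ratio and exceeded the whole cluster 2 value at the G0s2 ratio, at 129%.

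The ERK pathway lies downstream of the EGF receptor, and its feedback and target genes had medians of 0.91 and 0.36. Of 7 that reached 1, 3 (Dusp1, Ier3 and Plaur) were at least 2-fold higher than in cluster 1 (5.97% of the 1624 genes compared). Against cluster 7, 5 were at least 2-fold higher (5.6% of the 1696 compared). Less the scaled cluster 5 profile, 1 and 4 of 5 were higher at the S100a8 ratio, and 0 and 3 of 5 at the G0s2 ratio. The 3 higher than in cluster 1 as deposited had their highest average in cluster 5. Dusp5, a phosphatase specific for ERK, was at 1.25, 0.585 and 0.190 in clusters 2, 1 and 7, with 15.4% held by the scaled profile. Egr1 was at 4.0, 2.02 and 1.76, with 15.9%, and Phlda1 at 3.59, 1.92 and 3.74. Plaur, the urokinase receptor, was at 1.61, 0.167 and 0.260. The scaled cluster 5 profile would hold 42.5% of Plaur at the S100a8 ratio and 95.6% at the G0s2 ratio, which leaves 0.960 or 0.0769 after rescaling. Nfkbia, an inhibitor of NF-kB, was at 6.78, 1.87 and 3.26, and 4.13 or 0.518 is left. For Cxcl2 the subtraction leaves 4.13 or 0, and for Il1b it leaves 0 at both ratios. The ratio chosen thus decides whether Plaur, Nfkbia and Cxcl2 stand above clusters 1 and 7. At the G0s2 ratio the profile would hold 225% of S100a8 itself. Thbs1, a matrix glycoprotein, was at 1.8, 0.224 and 0.669, with 35.2%.

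**Figure D5:**
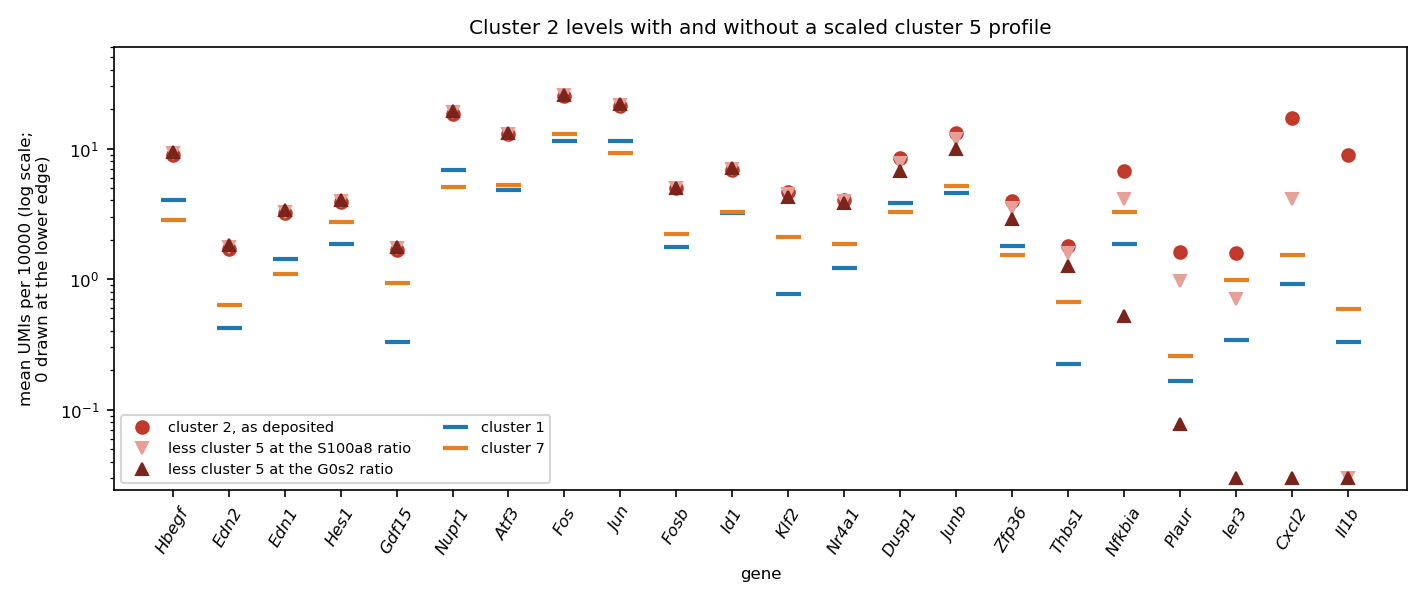
Mean UMIs per 10000 (y axis, log scale, with 0 at the lower edge) of 22 genes (x axis) in cluster 2 as deposited (red circles), in cluster 2 less cluster 5 scaled by the S100a8 or the G0s2 ratio and rescaled to 10000 (triangles), and in clusters 1 and 7 (bars). Hbegf, Edn2 and Edn1 barely move, at 8.90 and 9.47 for Hbegf at the G0s2 ratio, while Il1b is at 0 at both ratios, and Ier3 and Cxcl2 are at 0.698 and 4.13 at the S100a8 ratio and at 0 at the G0s2 ratio.

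Stress genes gave a mixed picture. Among targets of the integrated stress response, Gdf15, Atf3, Ppp1r15a and Slc7a11 were at least 2-fold higher than in cluster 1, of 6 that reached 1. The share over the 1624 genes compared was 5.97%. Less the scaled cluster 5 profile, 3 of 5 were higher at the S100a8 ratio, and Gdf15 and Atf3, 2 of 4, at the G0s2 ratio. Atf4, the central factor of the pathway, was at 2.18, 1.61 and 2.15 in clusters 2, 1 and 7, and the list of 16 had medians of 0.44 and -0.01. The scaled cluster 5 profile would hold 48.6% of Ppp1r15a, 115% of Slc7a11, the cystine transporter, and 3.06% of Gdf15. For p53 targets the medians were 0.18 and -0.01. Of 5 that reached 1 in each comparison, Gdf15 and Plk2 were at least 2-fold higher than in cluster 1 and Btg2 than in cluster 7. The shares over all genes compared were 5.97% and 5.6%. Cdkn1a, which encodes p21 and halts the cycle, was at 1.8, 2.90 and 1.11, and Bax, which promotes cell death, at 1.58, 1.60 and 2.62.

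The 250 bases before the start were searched on both strands for 5 motifs in the 15 of the 20 genes above both neighbours that RefSeq's table held a window for. The motif of ATF4 with CEBP, TGATGCAA, lay before Nupr1 and Atf3, in 2 of 15 windows, against 0.918% of 27025 genes with a window. In both genes it began 110 bases before the start. The E box CACGTG lay in 6 of 15 (6.86% of all), the AP-1 motif TGACTCA in 0 (5.16%), the CRE TGACGTCA in 1 (1.77%) and the forkhead motif TGTTTAC in 0 (3.54%). A match is a description of letters and not a binding site, and the motifs were chosen after the values were seen. Nupr1 (chr7:126625471-126625720, minus strand) and Atf3 (chr1:191183334-191183583, minus strand) are printed because they hold the rarest of the 5 motifs. Capitals mark the ATF4 and CEBP motif as it reads on the strand of the gene, TTGCATCA, and in Nupr1 also CACGTG.
Nupr1: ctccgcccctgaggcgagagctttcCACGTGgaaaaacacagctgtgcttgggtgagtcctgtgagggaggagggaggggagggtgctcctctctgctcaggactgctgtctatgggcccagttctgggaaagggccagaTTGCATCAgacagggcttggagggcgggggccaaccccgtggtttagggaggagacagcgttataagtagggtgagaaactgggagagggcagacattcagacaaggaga
Atf3: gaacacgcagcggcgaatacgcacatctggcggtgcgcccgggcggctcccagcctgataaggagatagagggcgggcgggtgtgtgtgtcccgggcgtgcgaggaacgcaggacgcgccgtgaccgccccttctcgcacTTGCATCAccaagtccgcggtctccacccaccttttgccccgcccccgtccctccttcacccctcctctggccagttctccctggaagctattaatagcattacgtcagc

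Transcripts of the translation machinery were near their level in cluster 7 and above that in cluster 1. Of 85 cytosolic ribosomal protein genes, 84 stood above cluster 1 and 42 above cluster 7, with medians of 0.59 and 0.00. In cluster 2, 34 had their highest average. No member was 2-fold apart from either neighbour. Over all genes the medians against clusters 1 and 7 were 0.008 and -0.003, and 4.1% were highest in cluster 2. Among the 1383 genes at 1 or more in cluster 2 the share highest there was 5.86%. Eef1a1, the elongation factor that delivers tRNA, was at 52.1, 34.8 and 47.9 in clusters 2, 1 and 7. Translation factors and hosts of small nucleolar RNAs, a list chosen after the values were seen, had all 26 measured members above cluster 1, with a median of 0.57, against -0.02 to cluster 7. Snhg1, such a host, was at 1.40, 0.315 and 1.45. Genes that assemble ribosomes in the nucleolus lay between the neighbours: all 20 were above cluster 1 and 0 above cluster 7, with medians of 0.86 and -0.67. Npm1 (nucleophosmin) was at 6.47, 2.96 and 9.88, and Ncl (nucleolin) at 2.82, 1.46 and 5.72. Enzymes tied to Myc, such as Nme1 at 2.76, 1.72 and 6.21, had medians of 0.64 and -0.72. The nuclear genes of oxidative phosphorylation were closer, with medians of -0.06 and -0.02 and 0 of 22 members 2-fold apart from either neighbour.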

How the data were processed

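Single-cell RNA was measured in 2 libraries of 1 group. The submitters' processing notes name Cell Ranger 3.1.0, Seurat 2.3 and the build mm10. How cells were filtered and clustered, how doublets were treated and which annotation was used is not given in the sources. The table the authors deposited holds 1 average signal per gene and cluster. Every column adds up to 10000, so the unit was taken as UMIs per 10000 of a cell, averaged over cells. Counts per cell are not used here, the spread among cells is not seen, and low values can rest on few cells.

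Low values that are whole after inversion (relative tolerance 1e-12) gave the number of cells in each cluster, and a UMI total was accepted where 2 genes gave it, for 2311 of 3082 cells. UMIs behind an average were taken as cells times the harmonic mean of the totals, with exact Poisson 95% intervals. The depth of the remaining cells was not tested. A value of 0 allows up to 3 UMIs. Folds and log2 ratios add 0.1 per 10000, and comparisons take genes at 1 or more. Checked on simulated data of 17044 genes, the number of cells was recovered in 12 of 12 clusters, 1813 of 1813 totals were true and 996 of 999 traced genes lay in the right cells of cluster 2. With 200 genes raised over cluster 1, 0 of 50 raised 1.5-fold, 49 of 50 raised 3-fold, and all 50 raised 4-fold and 8-fold were called.

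The genes named are the 5 markers, the 12 that exceed their next highest cluster by the largest fold, the 15 with the largest fold each way against clusters 1 and 7, and by list the 4 highest members and those 2-fold apart, with all members of the EGF, ERBB, endothelin and Notch lists. Genes higher or lower than both neighbours, and Lgr5, Ascl2, Axin2, Muc2, Ptprc, Epcam and G0s2, were added after their values were seen. The cluster, its markers and all lists were chosen with earlier results of these data known. The limits of 3000 UMIs and 5-fold, with at least 0.3 per 10000 in cluster 5, the subtraction of cluster 5, the translation list and the motifs were chosen after seeing the data. Python 3.11.15, numpy 2.4.6, pandas 2.3.3 and scipy 1.17.1 were used.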

Additional observations from a re-analysis of the deposited data

How the results depend on the processing

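The 5 counts that summarise the comparisons depend on the rule. With a pseudocount of 1, leading genes went from 3 to 0, genes higher than in cluster 1 from 97 to 42, lower from 107 to 35, higher than in cluster 7 from 95 to 39 and lower from 110 to 41. With a floor of 0.5, higher than in cluster 1 came to 152, higher than in cluster 7 to 149 and lower than in cluster 7 to 191. With a floor of 3 the 5 counts were 1, 38, 36, 43 and 36, and at 4-fold 0, 29, 18, 23 and 27. The last 3 settings follow from their construction, since they test fewer or more genes or ask for a larger ratio. Without clusters 5, 6 and 10 as comparators, 24 genes led. Without genes highest in clusters 5 or 10, an alternative added after seeing the data, 56 were higher than in cluster 1 and 56 higher than in cluster 7. Requiring intervals apart changed no count, but genes at 1 or more rest on enough UMIs that a 2-fold gap nearly always separates them. Less cluster 5 at the S100a8 or the G0s2 ratio, also added later, the 3 leading genes stayed at 3, and 75 or 71 genes were higher than in cluster 1, of which 71 or 63 were among the 97. Of the list medians, 23 were 0.5 or more in size, and all 23 kept their sign under the 3 alternatives for lists. A pseudocount of 1 cannot change the sign of any gene's log2 ratio, so that alternative could hardly change the sign of a median. It shrank many: stem cell 0.70 to 0.12 and absorptive -1.29 to -0.60 against cluster 1, ERK targets 0.91 to 0.21, and mitosis -2.63 to -1.14 against cluster 7. Leaving out each library could not be done, as every column pools both. No paired analysis was possible because there is 1 group and its columns carry no replicate number. Depth sets what an absent gene can hold: a value of 0 in cluster 2 allows up to 0.0140 per 10000.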

Other observations

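Some groups stood outside the comparisons above. Of 5 antimicrobial genes that reached 1 per 10000 in cluster 2 or 1, 4 were at least 2-fold lower in cluster 2, beside 6.59% of the 1624 genes compared. They were Saa1, Lypd8, Slpi and Duoxa2, an assembly factor of a peroxide-producing oxidase (0.605 against 1.39). Goblet genes were uneven. Of 7 that reached 1 in cluster 2 or 1, 3 were at least 2-fold higher than in cluster 1, beside 5.97% of the 1624 genes. These were Klk1, Creb3l1, a secretory pathway transcription factor (1.81 against 0.854), and Ccl6. The scaled cluster 5 profile would hold 54.2% of Ccl6 at the S100a8 ratio and 122% at the G0s2 ratio. Against cluster 7, the secretory genes Spink4 (2.68 against 8.58), Reg4 (0.433 against 2.25) and Mptx1 (1.15 against 3.90) were at least 2-fold lower. They were all 3 deep crypt secretory genes that reached 1, beside 6.49% of the 1696 genes compared. Of 8 goblet genes that reached 1, Spink4 was lower. Klk1 and the goblet protein gene Zg16 (1.30 against 0.445) were higher, beside 5.6% of the 1696. Among tight junction genes, 7 reached 1 in each comparison, of which 1 was at least 2-fold higher and 0 lower. It was Cldn4 against cluster 1 (2.05 against 0.777) and Cldn23 against cluster 7 (1.43 against 0.566). The shares higher over all genes compared were 5.97% and 5.6%. Posterior Hox genes, which mark the hind end of the gut, had medians of 0.02 and -0.05 on the log2 scale against clusters 1 and 7, and Hoxb13 was at 4.77, 4.74 and 3.51 in clusters 2, 1 and 7.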
